A study of Rattus norvegicus with 12 samples.

Results

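Macrophage and complement genes in the fetal rat testis are described here through 8 genes: Csf1r, Cd68, Lyz2, C1qa, C1qb, C1qc, Mrc1 and Cd163. Every probe set annotated to one of these genes was taken, which gave 8 probe sets, 1 per gene, of 31042 probe sets and 14218 genes named by a single symbol on the array. Between the lineages, 0 of the 7 genes that could be tested were called in F1, F2 or F3, where 23.1%, 14.3% and 3.11% of all tested probe sets were called. When the 3 generations were averaged, only Cd68 was called, lower in the vinclozolin lineage, against 33.3% of all tested probe sets. That call held under 8 of 23 other ways of processing the values.

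Macrophages enter the fetal testis from the yolk sac and later from fetal blood-forming organs, and they lie among the interstitial cells and along the vessels. They depend on the receptor CSF1R and its ligands for survival, they engulf dying cells and remodel vessels, and they hold abundant lysosomes, the site of CD68 and lysozyme. Tissue macrophages are also a main source of C1q, the recognition molecule that starts the classical complement pathway and that tags dying cells and synapses for uptake.

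Total RNA of testes of male embryos at embryonic day 16 was hybridised to 12 Affymetrix rat arrays. The vinclozolin lineage went back to pregnant females given intraperitoneal vinclozolin, a fungicide with anti-androgenic metabolites, at 100 mg/kg/day on pregnancy days 8 to 14. The control lineage went back to females given the vehicle, sesame oil with DMSO, on the same days. Each lineage had 2 arrays in F1 (embryos in the womb during dosing), 2 in F2 (offspring of mated F1 animals) and 2 in F3 (offspring of mated F2 animals), and each array held a pool of about 10 testes. The labels give no strain and leave out which litters went into each pool, so the p-values measure the spread between pools. Samples were grouped by their titles, although the protocol text of the F2 and F3 vinclozolin groups speaks of parents out of different control lines.

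The arrays of a group correlated at 0.976 to 0.993 over the 21729 tested probe sets, on the scale log2(signal + 16). Array medians were 40.6 to 42.8 signal units on the vinclozolin arrays and 44.5 to 47.1 on the control arrays. Beta-actin signal at the 5' end over that at the 3' end, a measure of RNA integrity and labelling, was 0.260 ± 0.097 on vinclozolin arrays and 0.453 ± 0.018 on control arrays (SD, n = 6 each; exact permutation test over 924 splits, 2-sided p = 0.00216, the smallest it can give; 0.00432 adjusted over 2 measures). The same ratio of Gapdh was 0.814 ± 0.150 on vinclozolin arrays and 0.986 ± 0.022 on control arrays (SD, n = 6 each; exact permutation p = 0.0411). The vinclozolin arrays had a mean beta-actin ratio of 0.171 in F1, 0.233 in F2 and 0.378 in F3, against 0.459, 0.447 and 0.453 on the control arrays of the same generations. The gap in the beta-actin ratio was wider in F1 and F2 than in F3. The Gapdh ratio was 0.684 in F1, 0.760 in F2 and 0.996 in F3 on vinclozolin arrays, against 1.00, 0.994 and 0.965 on control arrays, so that its direction turned in F3.

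Sequence upstream of Cd68 and C1qb is shown because these were the genes whose vinclozolin arrays both lay below both control arrays in F1 and in F2. The same held for 30.6% of all tested probe sets in F1 and 30.4% in F2. The share in both generations together was not computed. RefSeq promoters (GRCr8, 250 bases before to 50 after the annotated start) matched 7 of the 8 genes, and C1qc had no match. The letters GAGGAA, a core bound by the myeloid factor PU.1, were searched on both strands (TTCCTC on the other) and are in capitals below. The window of Cd68 is chr10:54882392-54882691 and that of C1qb chr5:154407778-154408077, both on the minus strand, and the sequences read 5′ to 3′ along the gene.
Cd68: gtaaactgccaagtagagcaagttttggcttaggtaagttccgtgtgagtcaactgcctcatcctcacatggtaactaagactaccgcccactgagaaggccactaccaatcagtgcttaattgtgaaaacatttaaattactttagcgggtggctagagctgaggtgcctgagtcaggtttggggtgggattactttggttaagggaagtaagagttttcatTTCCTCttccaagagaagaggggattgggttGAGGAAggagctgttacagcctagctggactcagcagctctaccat
C1qb: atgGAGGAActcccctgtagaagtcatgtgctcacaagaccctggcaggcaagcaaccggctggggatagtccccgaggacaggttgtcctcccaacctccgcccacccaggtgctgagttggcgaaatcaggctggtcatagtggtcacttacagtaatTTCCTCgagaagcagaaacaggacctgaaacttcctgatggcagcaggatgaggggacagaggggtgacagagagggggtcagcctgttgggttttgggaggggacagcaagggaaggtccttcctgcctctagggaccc
Each window held 2 matches. Over the 7 windows 5 held at least 1 match, as did 27.6% of 33469 rat promoters of 300 bases. A match describes letters and is not a measured binding site.

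Values below are deposited signals in linear array units. Differences are vinclozolin minus control on the scale log2(signal + 16), on which changes of dim genes are understated, and a call is an adjusted p under 0.05 in limma with Benjamini-Hochberg adjustment over 21729 tested probe sets. Signals of different probe sets are not comparable as amounts of RNA. In pooled tissue, fewer cells of a type and less RNA per cell cannot be told apart.

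Csf1r (1388784_at) encodes the receptor for CSF1 and IL-34 on cells of the macrophage lineage. In F1 its signal was 54.9 and 68.7 on the vinclozolin arrays and 81.2 and 76.1 on the control arrays. In F2 it was 67.5 and 40.2 on vinclozolin arrays and 89.9 and 57.6 on control arrays, and in F3 it was 76.1 and 59.5 on vinclozolin arrays against 60.0 and 90.8 on control arrays. The lineages did not overlap in F1, with vinclozolin below control, and overlapped in F2 and F3, where single arrays of a group lay far apart. The differences were −0.29 in F1, −0.37 in F2 and −0.11 in F3 (SE 0.22 each, n = 2 arrays per lineage; adjusted p = 0.386, 0.299 and 0.844). The mean of the 3 generations was −0.26 ± 0.13 (SE; 95% interval −0.53 to 0.02; adjusted p = 0.142), which was not called. Csf1r had the widest spread within groups among the 7 genes, a pooled SD of 0.29 on the log2 scale, against a median of 0.15 over all tested probe sets.

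Cd68 (1375010_at), the lysosomal membrane glycoprotein used as a general macrophage stain, was the one gene called in any comparison. In F1 its signal was 26.2 and 24.0 on vinclozolin arrays and 29.9 and 44.8 on control arrays. In F2 it was 24.2 and 17.8 on vinclozolin arrays and 31.8 and 38.7 on control arrays. In F3 it was 37.3 and 27.7 on vinclozolin arrays and 33.1 and 39.1 on control arrays. Both vinclozolin arrays lay below both control arrays in F1 and F2, and the lineages overlapped in F3. Over the 3 generations Cd68 averaged 26.2 ± 6.4 on vinclozolin arrays and 36.2 ± 5.6 on control arrays (SD, n = 6 each).

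The difference of Cd68 was −0.36 in F1, −0.47 in F2 and −0.11 in F3 (SE 0.19 each, n = 2 arrays per lineage; adjusted p = 0.195, 0.117 and 0.822). Of the 21 single-generation differences, that of Cd68 in F2 alone had an unadjusted p under 0.05 in limma. In the mean of the 3 generations Cd68 fell by 0.31 ± 0.11 (SE; 95% interval −0.55 to −0.08; adjusted p = 0.0400), a fold change of 0.804 on the shifted scale. Over all tested probe sets 33.3% were called in that mean and 19.2% were called lower in the vinclozolin lineage, so 1 of 7 genes is no more than the background. The call was lost without F1 control replicate 2, F1 vinclozolin replicate 2, F2 vinclozolin replicate 2 or any one of the F2 and F3 control arrays or F3 vinclozolin replicate 2 (adjusted p 0.05025 to 0.136). With each array centred on its median the difference was −0.22 (adjusted p = 0.131). With the beta-actin ratio as a covariate it was 0.21 ± 0.53 (SE; 95% interval −0.92 to 1.34; adjusted p = 0.92).

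**Figure D1:**
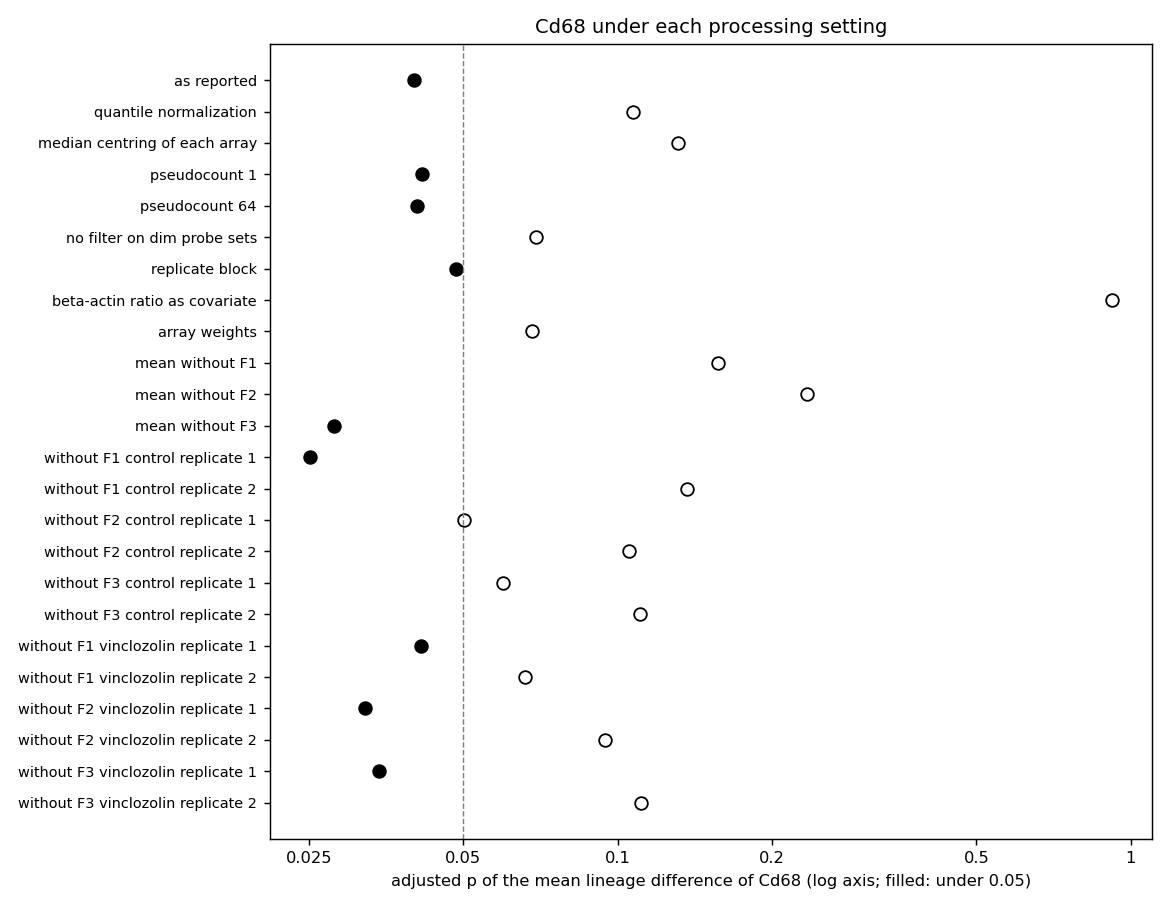
Adjusted p of the mean lineage difference of Cd68 under the reported setting and each alternative that gave a value, on a log axis, with 1 point per setting, filled where it was under 0.05 (dashed line). The reported value is 0.0400, and 8 of 23 alternatives lie under the line, between 0.0251 and 0.92 over all of them.

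Lyz2 (1370154_at), lysozyme 2 of phagocytes, splits bacterial cell walls. Its signal was 82.9 and 149.2 on F1 vinclozolin arrays and 108.5 and 102.9 on F1 control arrays. In F2 it was 108.1 and 90.1 on vinclozolin arrays and 100.2 and 110.8 on control arrays, and in F3 it was 79.3 and 105.6 on vinclozolin arrays against 112.8 and 96.9 on control arrays. The lineages overlapped in every generation, and the highest and one of the lowest arrays of the series were the 2 arrays of F1 vinclozolin. The differences were 0.07, −0.08 and −0.16 in F1, F2 and F3 (SE 0.20 each), and the mean was −0.06 ± 0.11 (SE; 95% interval −0.30 to 0.18; adjusted p = 0.739).

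C1qa, C1qb and C1qc encode the 3 chains that assemble into C1q. In the GRCr8 gene table they lie side by side in the order C1qb, C1qc and C1qa with 0 other genes between them. C1qa (1376652_at) gave 51.3 and 42.1 on F1 vinclozolin arrays and 46.3 and 45.6 on F1 control arrays. In F2 it gave 28.9 and 45.2 on vinclozolin arrays and 50.4 and 44.8 on control arrays, and in F3 it gave 35.3 and 49.4 on vinclozolin arrays against 44.7 and 45.7 on control arrays. The control arrays of C1qa stayed between 44.7 and 50.4, the vinclozolin arrays ran from 28.9 to 51.3, and the lineages overlapped in every generation. The differences were 0.01, −0.28 and −0.08 in F1, F2 and F3 (SE 0.18 each), with a mean of −0.11 ± 0.10 (SE; adjusted p = 0.438).

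C1qb (1370215_at) gave 55.8 and 52.0 on F1 vinclozolin arrays and 72.9 and 68.3 on F1 control arrays. In F2 it gave 55.9 and 43.1 on vinclozolin arrays and 64.2 and 66.3 on control arrays, and in F3 it gave 57.6 and 79.3 on vinclozolin arrays against 67.5 and 55.9 on control arrays. The vinclozolin arrays lay below the control arrays in F1 and F2, and in F3 one of them was the highest of all 12 arrays. The differences were −0.31 in F1, −0.32 in F2 and 0.11 in F3 (SE 0.16 each; adjusted p = 0.188, 0.210 and 0.772), with a mean of −0.17 ± 0.09 (SE; 95% interval −0.37 to 0.03; adjusted p = 0.175). The turn of sign in F3 was not called: C1qb had the lowest p of the 7 genes in the test of dependence on generation, adjusted p = 0.437 in limma. With F3, where its difference was positive, left out of the mean, C1qb was called lower, at −0.31 (adjusted p = 0.0470). This was 1 of 3 calls gained in 622 comparisons with alternatives. In the full mean 33.3% of all tested probe sets were called.

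C1qc (1373025_at) gave 29.4 and 48.1 on F1 vinclozolin arrays and 38.1 and 46.9 on F1 control arrays. In F2 it gave 33.7 and 39.4 on vinclozolin arrays and 52.3 and 36.0 on control arrays, and in F3 it gave 20.8 and 39.2 on vinclozolin arrays against 38.9 and 36.9 on control arrays. The lineages overlapped in every generation. The differences were −0.11, −0.18 and −0.26 in F1, F2 and F3 (SE 0.22 each), with a mean of −0.18 ± 0.13 (SE; adjusted p = 0.293). Over the arrays C1qa correlated with C1qb at 0.29 and with C1qc at 0.43, and C1qb with C1qc at 0.15 (Pearson r of log2 values over 12 arrays, which share the lineage and RNA quality differences). With group means taken out these were 0.04, 0.38 and 0.24. From 12 arrays of low signals they do not show whether the chains share a pattern.

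Mrc1 (1392648_at), the mannose receptor CD206 of endocytic macrophages and of some endothelium, was the only one of the 7 tested genes with a positive difference in the mean of the 3 generations and in each of them. It gave 134.4 and 123.9 on F1 vinclozolin arrays and 114.2 and 118.6 on F1 control arrays. In F2 it gave 143.8 and 107.6 on vinclozolin arrays and 123.2 and 112.4 on control arrays, and in F3 it gave 120.0 and 137.3 on vinclozolin arrays against 112.1 and 107.7 on control arrays. The vinclozolin arrays lay above the control arrays in F1 and F3 and on both sides of them in F2. The differences were 0.13, 0.07 and 0.20 in F1, F2 and F3 (SE 0.14 each), with a mean of 0.13 ± 0.08 (SE; 95% interval −0.03 to 0.30; adjusted p = 0.207), which was not called. With each array centred on its median, the mean was 0.23 and was called (adjusted p = 0.0267).

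Cd163 (1393917_at), the scavenger receptor for haemoglobin bound to haptoglobin, stayed at the bottom of the scale. It gave 1.5, 1.2, 3.1, 1.7, 1.2 and 0.5 on the vinclozolin arrays and 5.0, 0.7, 6.6, 1.5, 0.5 and 2.5 on the control arrays, in the order F1, F2 and F3. All 12 values lie below the signal of 14.8 under which probe sets were left out, so Cd163 was not tested and no fold change is given. No detection calls were used, and such a value does not show that the gene was off.

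**Figure D2:**
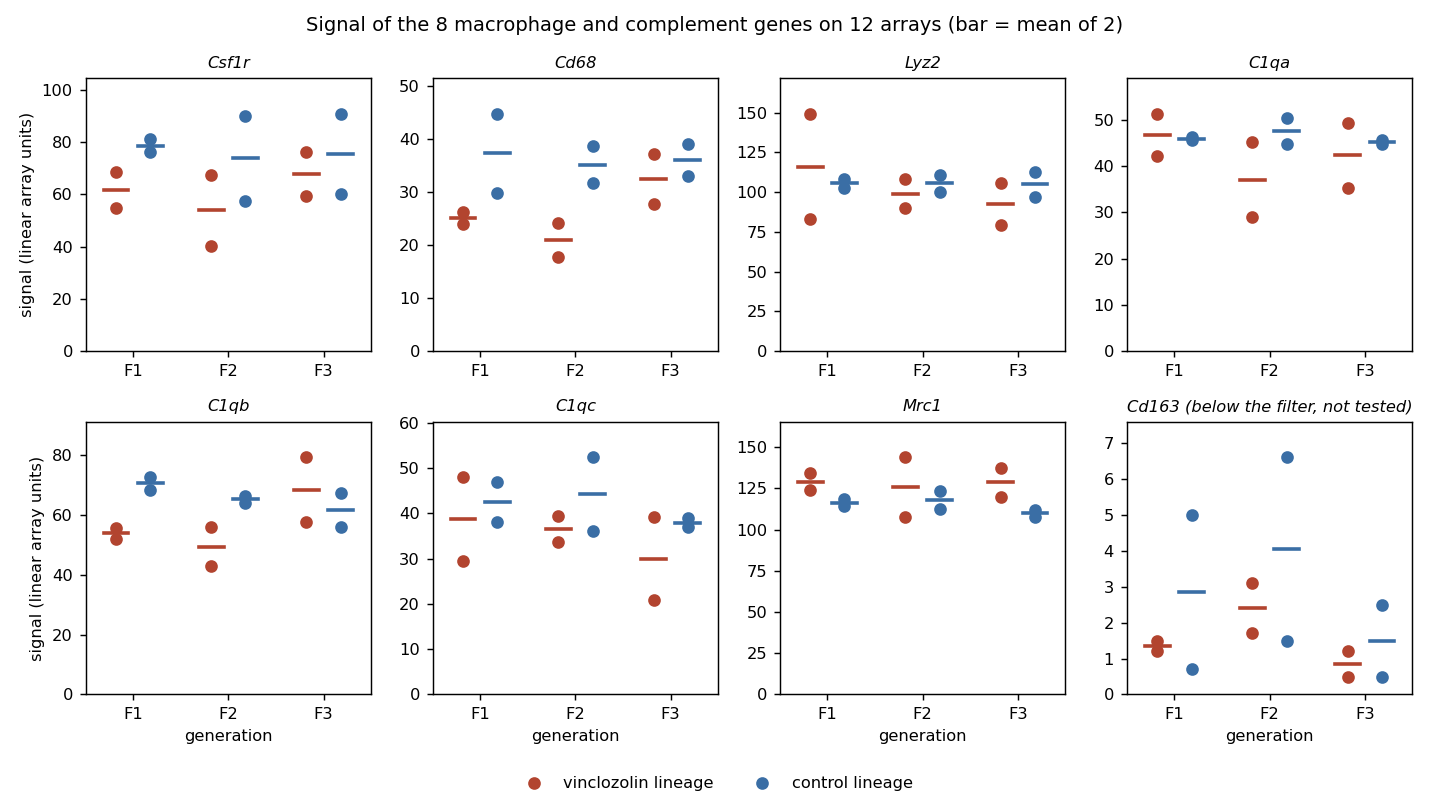
Deposited signal (linear array units, axis from 0, a scale of its own for each gene) of the 8 genes in F1, F2 and F3, with 1 point per array and a bar at the mean of 2, vinclozolin lineage left of control lineage. Cd68 and C1qb lie lower on vinclozolin arrays in F1 and F2, Mrc1 lies higher in F1 and F3, and Cd163 stays at or under 6.6.

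Taken by generation, 0 of the 7 genes were called in F1, where 23.1% of all tested probe sets were, 0 of 7 in F2, against 14.3%, and 0 of 7 in F3, against 3.11%. At an unadjusted p under 0.05 in limma, the counts were 0 in F1, 1 (Cd68) in F2 and 0 in F3. Of all 21729 tested probe sets, 7649 had such a p in F1, 6205 in F2 and 3973 in F3. The lowest adjusted p of the 7 genes was 0.188 in F1, 0.117 in F2 and 0.476 in F3. The difference was negative for 4 of 7 genes in F1, 6 of 7 in F2 and 5 of 7 in F3, with medians of −0.11, −0.28 and −0.11. Over all tested probe sets the medians were −0.01 in each generation. In the mean of the 3 generations 6 of 7 were negative, with a median of −0.17 against −0.01 over all probe sets.

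The 95% intervals describe the precision of each difference in the reported fit, which holds no term for RNA quality. Over the 21 differences of 7 genes in 3 generations they ran from −0.88 to 0.49 on the log2 scale, a fold change of 0.543 to 1.40. With a pseudocount of 1, which shrinks changes of dim genes less, they ran from −1.34 to 0.56. With the beta-actin ratio as a covariate they ran from −4.23 to 2.34. In the reported fit, a lowering of Cd68 in F2 of 1.84-fold on the shifted scale is inside its interval. A p above the threshold does not show that the lineages were equal.

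**Figure D3:**
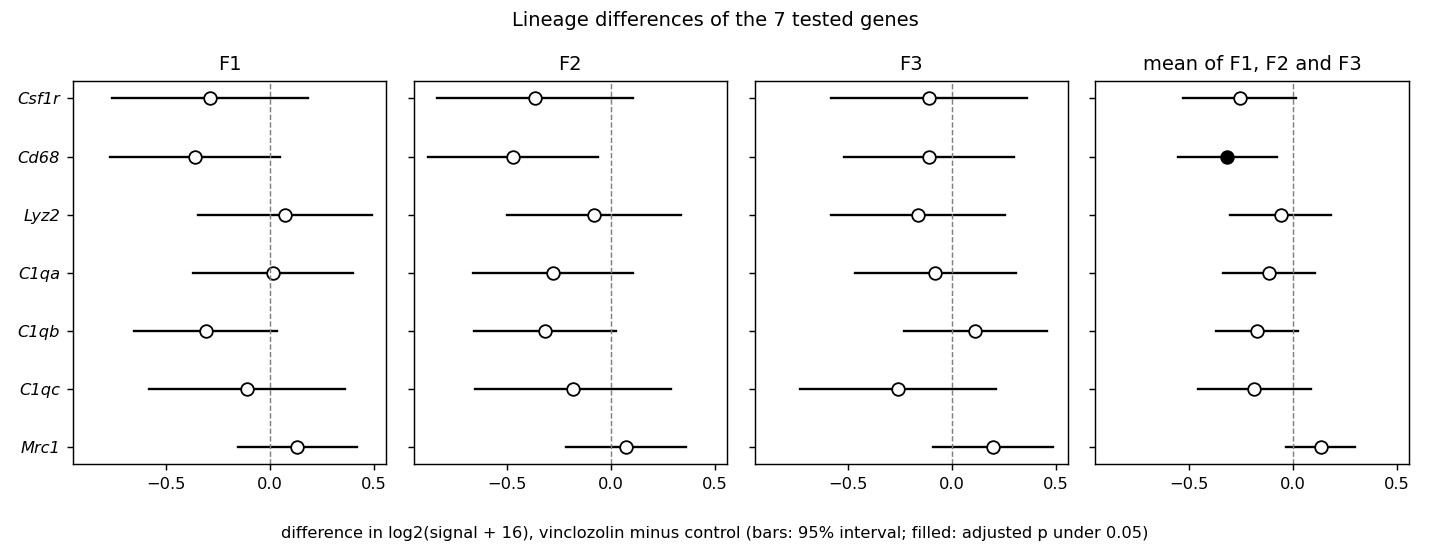
Difference in log2(signal + 16), vinclozolin minus control, of the 7 tested genes in F1, F2, F3 and the mean of the 3, as points with 95% intervals, filled where the adjusted p was under 0.05. Cd68 in the mean (−0.31) is the only filled point and the interval of Cd68 in F2 is the only one of the 21 single-generation intervals that leaves out 0.

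No overlap between lineages is common on these arrays. In F1, 3 of 7 genes (Csf1r, Cd68 and C1qb) had both vinclozolin arrays below both control arrays, against 30.6% of all tested probe sets. In F2 it was 2 of 7 (Cd68 and C1qb), against 30.4%, and in F3 it was 0 of 7, against 29.7%. Mrc1 was the 1 gene of 7 above control in F1, where 27.8% of probe sets were, and in F3, where 25.8% were. In F2, 0 of 7 lay above, against 27.6%.

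The test of whether the lineage difference depended on generation called 0 of 7 genes, against 2.6% of all tested probe sets, with adjusted p of 0.437 to 0.956 and 0 of 7 at an unadjusted p under 0.05 (limma F test). Among the F1, F2 and F3 control groups 0 of 7 were called, against 0.0% of all, with unadjusted p of 0.619 to 0.998 for the 7 genes, and 517 of all probe sets had an unadjusted p under 0.05.

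Correlations between the 7 genes were mostly low on these arrays. Over the 12 arrays the 21 pairs had Pearson correlations of −0.29 to 0.63 with a median of 0.10, and 13 pairs were positive. The highest were C1qc with Lyz2 (0.63), Csf1r with Cd68 (0.61) and Cd68 with C1qb (0.53). After group means were taken out the median was 0.07, between −0.58 and 0.77. The arrays share RNA quality and lineage, and these values are descriptions only.

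**Figure D4:**
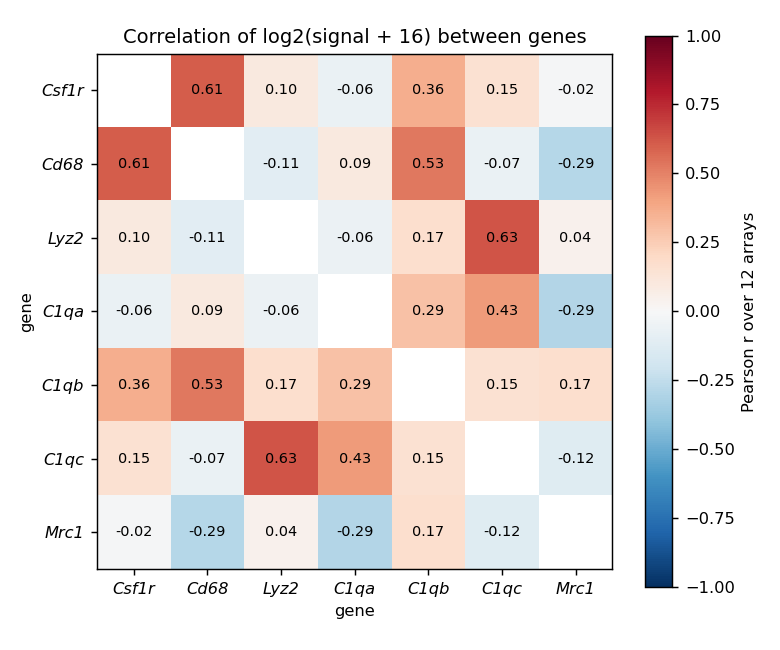
Pearson correlation of log2(signal + 16) over 12 arrays between each pair of the 7 tested genes, from −1 (blue) to 1 (red). C1qc with Lyz2 (0.63) and Csf1r with Cd68 (0.61) are the highest of 21 pairs, and 8 pairs are negative.

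The mean of the 7 genes, each centred on its own mean, was compared with 15766 other probe sets named by a single symbol. Zfp91 (1381934_at) was most like it, at r = 0.94 over 12 arrays, followed by Lsm12 (0.93), Ammecr1l (0.92), Nectin3 (0.92) and Nfx1 (0.91). Each was called lower in the vinclozolin lineage in F2 and the mean, as were 19.2% of all tested probe sets in the mean. Zfp91 gave −0.68 in the mean (limma, adjusted p = 0.00212). The arrays share lineage and RNA quality, so these correlations are descriptions only and do not mark macrophage genes. The mean profile was lowest on F2 vinclozolin replicate 2 (−0.23) and highest on F2 control replicate 1 (0.13).

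**Figure D5:**
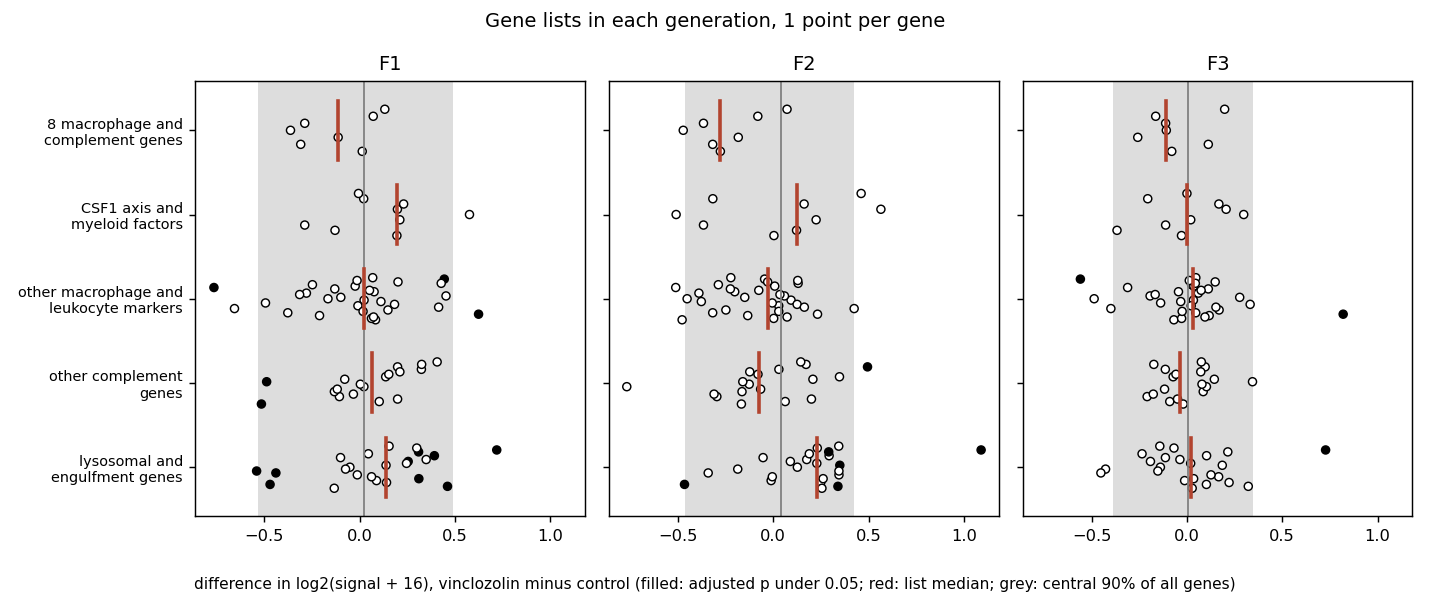
Difference in log2(signal + 16), vinclozolin minus control, with 1 point per gene for 5 gene lists in F1, F2 and F3, filled where the adjusted p was under 0.05, with the list median in red and the central 90% of all genes in grey. Only the brightest tested probe set of a gene is drawn, so 7 of the 8 macrophage and complement genes appear, without Cd163. They and the CSF1 axis hold no filled point. The dimmer probe sets of Maf, called lower in F1 and F2, are not drawn. Psap stands apart at 0.72, 1.09 and 0.73 among the lysosomal genes.

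The list of ligands, receptors and transcription factors around CSF1R, which includes Csf1r, had 9 tested genes. At the brightest probe set of each gene, 0 were called in F1, F2, F3 or the mean by limma, with medians of 0.20, 0.12, 0.00 and 0.12. At an unadjusted p under 0.05 the counts were 1, 4, 1 and 2. Of all 21729 tested probe sets, 7649, 6205, 3973 and 9333 had such a p. Over all 11287 genes, also at the brightest probe set, 11.2% were called higher and 8.98% lower in F1, 6.02% and 5.09% in F2, 1.21% and 1.51% in F3, and 17.6% and 13.5% in the mean, and the F1 median was 0.02. Of 9 dimmer probe sets of these genes, both of Maf were called lower in F1, F2 and the mean, and 0 were called higher. Called lower among all 21729 tested probe sets were 2981 in F1, 2097 in F2 and 4173 in the mean. Il34, the second ligand of CSF1R, gave a mean of 0.32 ± 0.12 (SE; adjusted p = 0.0584), and Csf1 (1380582_at), the first ligand, gave −0.37 in F3 (adjusted p = 0.162), where its other probe sets lay between −0.32 and 0.50. Runx1, a factor of blood cell formation, gave 0.46 in F2 at its brightest probe set (1368914_at, adjusted p = 0.0528) and −0.42 at the other (1395442_at, adjusted p = 0.273). Csf2rb, the shared beta chain of the GM-CSF receptor, gave 0.58 in F1 (adjusted p = 0.0720), −0.51 in F2 and 0.30 in F3. Its mean was 0.12 (adjusted p = 0.504). Its signals were low, 4.9 to 30.2 on vinclozolin arrays and 9.1 to 19.6 on control arrays. Csf2ra, the alpha chain, gave 0.21 in F1 (adjusted p = 0.315).

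Maf, a transcription factor of macrophages that also acts in other cells, gave different answers by probe set. Its brightest probe set (1385243_at) gave −0.17 ± 0.06 in the mean (SE; adjusted p = 0.055). Both dimmer ones, chosen after their values were seen, fell by 0.68 (1368388_at, adjusted p = 0.000899) and 0.47 (1387165_at, adjusted p = 0.000424) in the mean. In F1 they fell by 0.75 and 0.44 (adjusted p = 0.0225 and 0.0338), and in F2 by 0.87 and 0.56 (adjusted p = 0.0166 each). The first of these ran from 2.0 to 15.4 on vinclozolin arrays and from 19.2 to 28.2 on control arrays.

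Markers of macrophages and other leukocytes are given by their signals, which do not compare between probe sets as amounts of RNA. Ptprc (CD45, of all white blood cells) gave 0.8 to 19.8 on vinclozolin arrays and 1.7 to 17.6 on control arrays over its 2 probe sets, both under the filter. Itgam (CD11b) gave 1.2 to 3.4 on vinclozolin arrays and 1.6 to 3.4 on control arrays, also under it. Adgre1, the F4/80 antigen, gave 10.0 to 26.3 on vinclozolin arrays and 13.4 to 23.4 on control arrays. Signals of these markers were low in both lineages, although Adgre1 passed the filter. Of the 38 listed markers on the array, 31 passed the filter and 7 did not. Fcer1g and Tyrobp, adaptors of activating receptors on myeloid cells, also passed it. Fcer1g gave 68.1 to 98.0 on vinclozolin arrays and 75.1 to 95.9 on control arrays. Tyrobp gave 32.6 to 59.5 on vinclozolin arrays and 45.7 to 51.6 on control arrays.

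Of 45 listed macrophage and leukocyte markers, 38 were on the array and 31 were tested. Called higher and lower were 2 and 1 genes in F1, 0 and 0 in F2, 1 and 1 in F3, and 2 and 2 in the mean, with medians of 0.02, −0.03, 0.03 and 0.01. Over all genes the shares called higher and lower were 11.2% and 8.98% in F1, 6.02% and 5.09% in F2, 1.21% and 1.51% in F3, and 17.6% and 13.5% in the mean. At an unadjusted p under 0.05 in limma the counts of markers were 6, 3, 4 and 5. Of all 21729 tested probe sets, 7649 had such a p in F1, 6205 in F2, 3973 in F3 and 9333 in the mean. The summed signal of the markers was 1927.4 to 2117.5 on vinclozolin arrays and 1911.7 to 2043.1 on control arrays, which overlap. In F2 the smallest unadjusted p was that of Fcer1g, at −0.38 (limma, adjusted p = 0.0563).

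Cd52, a surface glycopeptide of lymphocytes and monocytes, was the marker that rose in more than one comparison. Its signal was 54.2 and 59.8 on F1 vinclozolin arrays and 33.6 and 29.2 on F1 control arrays. In F2 it was 37.6 and 52.5 on vinclozolin arrays and 30.7 and 41.0 on control arrays, and in F3 it was 51.2 and 85.3 on vinclozolin arrays against 34.6 and 27.2 on control arrays. The lineages overlapped in F2 only. Cd52 rose by 0.62 ± 0.20 in F1 (SE; adjusted p = 0.0385), by 0.82 in F3 (adjusted p = 0.0420) and by 0.56 ± 0.12 in the mean (adjusted p = 0.00203).

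Lyn (1368679_a_at), a Src family kinase of myeloid and B cells, fell by 0.76 ± 0.21 in F1 (SE; adjusted p = 0.0156) and by 0.53 ± 0.12 in the mean (adjusted p = 0.00345). Its other probe set (1387277_at) gave 0.11 in F1 and −0.05 in the mean and was not called. Fcgr3a, an IgG Fc receptor, fell by 0.37 in the mean (adjusted p = 0.0331), and Cyba, a subunit of the phagocyte oxidase found in many cells, rose by 0.21 (adjusted p = 0.0152). Stab1, a scavenger receptor of macrophages and sinusoidal endothelium, rose by 0.44 in F1 (adjusted p = 0.0301) and fell by 0.56 in F3 (adjusted p = 0.0402). With the beta-actin ratio as a covariate, the signs of Lyn in F1 and the mean, Cd52 in F1 and Cyba turned, with no call.

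Other complement genes had 18 tested members. Called higher and lower were 0 and 2 in F1 (11.2% and 8.98% of all genes), 1 and 0 in F2 (6.02% and 5.09%), 0 and 0 in F3 (1.21% and 1.51%), and 1 and 1 in the mean (17.6% and 13.5%), with medians of 0.06, −0.07, −0.03 and 0.02. At an unadjusted p under 0.05 in limma the counts were 5, 3, 1 and 2. Of all 21729 tested probe sets, 7649, 6205, 3973 and 9333 had such a p. C1r and C1s, the proteases that bind C1q, gave means of 0.03 (adjusted p = 0.816) and 0.12 (adjusted p = 0.346), and C3, the protein on which the pathways meet, gave −0.20 (adjusted p = 0.190). C1qbp, a mostly mitochondrial protein that can bind the heads of C1q, fell by 0.52 ± 0.13 in F1 (SE; adjusted p = 0.0085) and by 0.23 in the mean (adjusted p = 0.0225). Its F1 signal was 1409.4 and 957.4 on vinclozolin arrays and 1618.3 and 1718.1 on control arrays.

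Masp2 (1393156_at), a protease of the lectin pathway, rose by 0.49 ± 0.13 in F2 (SE; adjusted p = 0.0191) and by 0.26 in the mean (adjusted p = 0.0133). Its other 2 probe sets lay under the filter. Cd59b, of the CD59 family that blocks the membrane attack complex, fell by 0.49 ± 0.10 in F1 (SE; adjusted p = 0.0037) and gave 0.34 in F3 (adjusted p = 0.0891). With the beta-actin covariate C1qbp gave 0.62 in F1 and 0.46 in the mean, not called.

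Genes of lysosomes and engulfment gave calls in every generation. Of 23 tested, called higher and lower were 6 and 3 in F1, 4 and 1 in F2, 1 and 0 in F3, and 8 and 3 in the mean, with medians of 0.14, 0.23, 0.02 and 0.12. Over all genes, 11.2% and 8.98% were called higher and lower in F1, 6.02% and 5.09% in F2, 1.21% and 1.51% in F3, and 17.6% and 13.5% in the mean. Among 5 dimmer probe sets of the list, that of Ctsl (1370245_at) was called higher, and 0 were called lower. It gave 0.31 in F1 (limma, adjusted p = 0.0469) and 0.19 in the mean (adjusted p = 0.0291). Many genes of the list are used by every cell, so the list does not mark macrophages.

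Psap, the precursor of the saposins that help to degrade sphingolipids, gave 1568.3 and 1347.7 on F1 vinclozolin arrays and 947.5 and 811.8 on F1 control arrays. In F2 it gave 1638.0 and 1862.4 on vinclozolin arrays and 826.8 and 797.7 on control arrays, and in F3 it gave 1308.4 and 1319.8 on vinclozolin arrays against 779.0 and 795.9 on control arrays. All vinclozolin arrays lay above all control arrays. Psap rose by 0.72, 1.09 and 0.73 in F1, F2 and F3 (SE 0.10 each; adjusted p = 0.000137, 1.63e-05 and 0.0014).

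Cd63, a tetraspanin of lysosomes, rose by 0.46 in F1 (adjusted p = 0.00205), by 0.34 in F2 (adjusted p = 0.0213) and by 0.37 in the mean (adjusted p = 7.95e-05). Cd9, another tetraspanin, fell by 0.47 in F1 (adjusted p = 0.016) and in F2 by 0.47 (adjusted p = 0.0255). Elmo1 and Dock1, partners in engulfment, fell by 0.54 in F1 (Elmo1, adjusted p = 0.0212) and by 0.41 in the mean (Dock1, adjusted p = 0.000912), and Gusb, beta-glucuronidase, rose by 0.35 in F2 (adjusted p = 0.0472). Under the beta-actin covariate Cd63 in F1, F2 and the mean and Dock1 in the mean turned sign without a call.

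Markers of other blood cells were set beside the 8 genes. Granulocyte and mast cell genes, 10 on the array, summed to 108.6 to 172.7 on vinclozolin arrays and 67.5 to 107.1 on control arrays, without overlap, but only 2 (Cpa3 and Tpsb2) passed the filter, and 0 of them were called by limma in F1, F2, F3 or the mean, with 0 at an unadjusted p under 0.05. Lymphocyte genes, 13 on the array with 3 tested, summed to 150.0 to 209.8 on vinclozolin arrays and 164.3 to 183.5 on control arrays, with 0 called and 0 at an unadjusted p under 0.05. Red cell genes summed to 15230.3 to 19542.8 on vinclozolin arrays and 12475.4 to 14157.0 on control arrays, without overlap. Hbb and Hbe1 weigh most in this sum, and no background share was computed for such sums. At the brightest probe set 7, 2, 7 and 8 of 12 were called higher in F1, F2, F3 and the mean, and 0 were called lower. Of all genes 11.2%, 6.02%, 1.21% and 17.6% were called higher. The difference was negative, without a call, for 3, 5, 0 and 2 of the 12. Of 4 dimmer probe sets, those of Tfrc (1371113_a_at) and Slc4a1 (1369634_at) were called lower in F1, F2 and the mean, at −0.55 (adjusted p = 3.62e-05) and −0.72 (adjusted p = 2.43e-05) in the mean. Ahsp, whose protein keeps free alpha-globin stable, had an F1 difference of 1.41 (adjusted p = 2.82e-05) and an F3 difference of 1.05 (adjusted p = 0.00287). The summed signal of the 8 genes was 385.1 to 509.2 on vinclozolin arrays and 468.1 to 518.6 on control arrays. What part blood content had in the values of the 8 genes was not tested. The beta-actin ratio was 0.149 to 0.395 on vinclozolin arrays and 0.423 to 0.471 on control arrays, without overlap. The covariate fit therefore cannot tell RNA quality and lineage apart.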

How the data were processed

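Total RNA pools from embryonic testes were measured on 12 Affymetrix rat arrays, 2 per group. The authors deposited a linear intensity for each probe set, with 33 zeros and a highest value of 9534.9. Their 2% trimmed mean was 125.03 or 125.04 on every array, so a global scaling preceded deposit. How the probes were summarised is not given in the sources used here. Detection calls were not used. RNA was extracted with Trizol and labelled with biotin, per the labels' protocols.

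The 57 control probe sets were kept out of the tests, and beta-actin and Gapdh control probe sets gave the RNA quality ratios. Signals were transformed as log2(signal + 16). By mean value the lowest 30% (9313 probe sets, signal under 14.8) were left out, which left 21729 for testing. limma 3.58.1 (R 4.3.3; lmFit, eBayes with trend) fitted 6 group means to all 12 arrays, with 6 residual and 8.97 prior degrees of freedom. Adjusted p-values are Benjamini-Hochberg over all tested probe sets. The contrasts were each generation, their equally weighted mean, dependence on generation (F test) and the 3 control groups (F test). The number of arrays limits the precision. The code was tested on simulated data.

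The platform annotation paired 20826 probe sets with 1 symbol and 436 with several, and listed none for 9780. For a gene of another list the brightest tested probe set was used. Named genes were all probe sets of the 8 genes. For each list and comparison the 4 called genes that differed most (or fewer) were taken, or, with no call, the 2 of lowest p. The called genes so taken are all named for the macrophage, complement and lysosomal lists. For the lymphoid, red cell, endothelial, Leydig, Sertoli and germ cell lists, not all genes so taken are named. The 5 probe sets most correlated with the mean of the 7 tested genes were also named. C1r, C1s, C3, Tyrobp, Ptprc, Itgam and Adgre1 were named for their roles, after values were seen. The 8 genes, the lists (CSF1 axis, macrophage, complement, lysosomal, granulocyte and mast, lymphoid, red cell, endothelial, Leydig, Sertoli and germ cell genes) and the alternatives were chosen with earlier results of these data known. Alternatives were quantile normalization, median centring, other pseudocounts and filters, a replicate block, the 4 arrays of a generation alone, the beta-actin ratio (log2) as a covariate, array weights, leaving out each array and leaving out each generation. Same-numbered arrays of the lineages did not deviate together (correlations of −0.02, −0.04 and 0.03 in F1, F2 and F3), so the numbers were not taken to pair samples. Promoters are from RefSeq.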

Additional observations from a re-analysis of the deposited data

Results flagged for a closer look

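Stab1, a scavenger receptor, had lineage differences that depended on generation (limma F test, adjusted p = 0.02967). Its signal was 101.8 and 107.4 on F1 vinclozolin arrays against 77.0 and 68.5 on F1 control arrays, and 65.1 and 58.2 on F3 vinclozolin arrays against 101.7 and 94.9 on F3 control arrays. In F2 it was 87.6 and 89.7 on vinclozolin arrays and 80.8 and 104.5 on control arrays.

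Cd59b, of the CD59 family, also had differences that depended on generation (limma F test, adjusted p = 0.01746), at 412.8 and 418.9 on F1 vinclozolin arrays against 627.9 and 553.5 on F1 control arrays, and 753.2 and 680.8 on F3 vinclozolin arrays against 547.0 and 574.9 on F3 control arrays. Elmo1, an engulfment adaptor, had both F1 vinclozolin arrays (38.2 and 35.6) below both F1 control arrays (55.7 and 66.5) and both F2 vinclozolin arrays (62.9 and 54.5) above both F2 control arrays (47.8 and 38.1). The test of that difference between generations was not called (limma F test, adjusted p = 0.0933).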

How the results depend on the processing

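In F1, F2 and F3, 0 of the 7 tested genes were called under the reported setting and under 66 of 66 alternatives that gave a count. In the mean of the 3 generations the count was 1 as reported, 0 under quantile normalization, no filter on dim probe sets, the lowest 50% left out (which drops Cd68), the beta-actin covariate, array weights, the mean without F1 and the mean without F2, and 2 in the mean without F3, where C1qb joined Cd68. Leaving out each array in turn gave 0 to 2; the 2 came without F2 vinclozolin replicate 1, where Csf1r joined at −0.35 (adjusted p = 0.0491). Median centring kept the count at 1, but Mrc1 was called (0.23) and Cd68 was not (−0.22). Cd68 stayed called in 4 of 12 such fits and in 8 of 23 alternatives in all, and was negative in 22 of 23. With the replicate block the count in the mean stayed 1 (Cd68 adjusted p = 0.0484) and no other count changed. Of 622 comparisons of a difference of the 7 genes with an alternative, 577 kept sign and side of the threshold, 27 changed sign without a call in either, 3 gained a call, 14 lost one and 1 reversed. The beta-actin covariate reversed called differences, without a call afterwards: Cd68 in the mean (0.21), Lyn in F1 (1.43) and the mean (0.81), Cd52 in F1 (−0.20), Cyba in the mean (−0.0334), C1qbp in F1 (0.62) and the mean (0.46), Cd63 in F1 (−0.25), F2 (−0.13) and the mean (−0.0638), and Dock1 in the mean (0.57). The cause was not tested; under this covariate the intervals of the 7 genes ran from −4.23 to 2.34. Over all probe sets, the counts moved by more than 1.5 times as follows. F1 gave 5026, but 0 with the covariate, 3319 with array weights, 2294 from its 4 arrays alone and 2498 to 7190 with 1 array left out, lowest without F1 control replicate 2. F2 gave 3118, but 0 with the covariate and 1089 (without F2 vinclozolin replicate 2) to 4888. F3 gave 676, but 351 without a filter, 247 with the covariate, 2712 with array weights, 2262 from its 4 arrays alone and 65 (without F3 control replicate 2) to 2175. The mean gave 7245, but 0 with the covariate and 4091 without F1. Dependence on generation gave 565, but 313 without a filter, 3 with the covariate, 942 with array weights and 65 to 3506 with 1 array left out. Among the fits with 1 array left out, the highest counts in F1, F2, F3 and dependence on generation came without F1 vinclozolin replicate 1. Dim genes such as Cd163 and Ptprc are limited by their low signal.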

Other observations

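Markers of the other testis cells were described beside the 8 genes in the same fit, at the brightest probe set of each gene. Over all genes, 11.2% and 8.98% were called higher and lower in F1, 6.02% and 5.09% in F2, 1.21% and 1.51% in F3, and 17.6% and 13.5% in the mean. Of 9 tested fetal Leydig cell genes, called higher and lower were 2 and 2 in F1, 3 and 1 in F2, 3 and 0 in F3, and 5 and 1 in the mean. Of the 4 called genes that differed most in the mean, Hsd17b3 (0.50), Hsd3b1 (0.35) and Insl3 (0.34) were higher and Scarb1 (−0.35) was lower. The 3 dimmer probe sets of Leydig cell genes were all called lower in F1, F2 and the mean: Star (1387174_a_at) gave −0.51 in F2 (adjusted p = 0.00667) against 0.49 at the brightest one (1368406_at, adjusted p = 0.00205), Lhcgr (1369033_at) gave −1.04 in F2 (adjusted p = 0.00387), and the other was of Scarb1. Of 7 Sertoli cell genes, 1 was called higher in F1 and 2 in the mean, and 0 were called lower. Both dimmer probe sets of Sertoli cell genes were called lower in F1, F2 and the mean: Wt1 (1369695_at) gave −0.67 and Gata4 (1370293_at) −0.78 in the mean (adjusted p = 0.000151 and 2.33e-05), against −0.10 and −0.03 at their brightest probe sets. Of 11 endothelial genes, called higher and lower were 0 and 2 in F1, 0 and 1 in F2, 0 and 0 in F3, and 1 and 2 in the mean, where 1 of 2 dimmer probe sets (of Flt1) was also called lower. Of 4 germ cell genes, 1 was called lower in F1, 1 in F2, 1 in F3 and 2 in the mean, and 0 were called higher. The Leydig cell genes summed to 14101.8 to 16375.9 on vinclozolin arrays and 13258.2 to 13850.6 on control arrays, without overlap. Cyp17a1, Hsd3b1 and Cyp11a1 weigh most in this sum. Such sums are not amounts of RNA, and no background share was computed for them. The Sertoli cell genes summed to 6892.7 to 8095.0 on vinclozolin arrays and 7218.6 to 7636.2 on control arrays. The endothelial genes summed to 1314.0 to 1633.7 on vinclozolin arrays and 1537.7 to 1698.5 on control arrays. The germ cell genes summed to 392.8 to 563.6 on vinclozolin arrays and 541.9 to 601.0 on control arrays.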
